A study of Mus musculus with 2 samples.

Results

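The Mir17-92 cluster is a polycistron, a single primary transcript (Mir17hg) from which 6 microRNA hairpins are cut: Mir17, Mir18, Mir19a, Mir20a, Mir19b-1 and Mir92-1. Its members were taken by gene identity, as the rows whose stable Ensembl identifier maps to these 6 hairpins, and make up 6 of the 1973 microRNA genes in the tables. Small RNA of mouse heart (strain B6NCrl, healthy, male and female embryos pooled) at embryonic day 10.5 was sequenced in 2 libraries. Replicate 1 came from the hearts of 69 embryos and replicate 2 from those of 51. There is 1 group and no untreated or mutant control, so levels are described within the tissue and between the 2 pools. The values are counts of reads on a gene's own strand, given as CPM (each gene's count over the own-strand total of all listed genes, brought to a common scale), with totals of 4163656 in replicate 1 and 4789068 in replicate 2.

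As background, a microRNA hairpin is cut from the primary transcript by Drosha and then by Dicer, and a mature arm is loaded into an Argonaute protein. The loaded arm pairs with messenger RNAs mainly through its seed, bases 2 to 8, so arms with the same seed share targets. The cluster is switched on by Myc and E2F factors, is known from proliferating progenitors and as an oncogenic cluster, and its loss in mice causes heart septation defects, small lungs and death around birth. In the heart it is known to act in the progenitor cells that build the outflow tract, downstream of BMP signalling. Paralogous clusters lie in introns of Mcm7 (Mir106b, Mir93 and Mir25) and on the X chromosome (Mir106a, Mir18b, Mir20b, Mir19b-2, Mir92-2 and Mir363).

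The arms usually taken as the active ones fall into 4 seed families, and they are shown because the seed sets the family and the remaining bases decide whether a read can be given to a single locus. Sequences are from RefSeq on GRCm38.p6, run 5′ to 3′, and carry the seed in capitals. The last pair of lines are the closest X-linked counterparts of miR-17 and miR-18a.
miR-17-5p: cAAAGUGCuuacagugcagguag
miR-20a-5p: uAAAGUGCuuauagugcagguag
miR-18a-5p: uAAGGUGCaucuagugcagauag
miR-19a-3p: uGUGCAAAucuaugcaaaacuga
miR-19b-3p: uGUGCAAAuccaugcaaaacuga
miR-92a-3p: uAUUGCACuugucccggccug
miR-106a-5p: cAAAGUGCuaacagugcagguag
miR-18b-5p: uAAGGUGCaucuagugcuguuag

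Counting positions from 1 at the 5′ end and writing the base of the first-named arm first, miR-17-5p and miR-20a-5p differ by C1U and C12U and share the seed. miR-19a-3p and miR-19b-3p differ by U11C alone. Outside the cluster, miR-17-5p differs from miR-106a-5p by U10A alone, and miR-18a-5p differs from miR-18b-5p by A18U and A20U. The seed of miR-18a departs from that of miR-17 by A4G. The tables count hairpins, so they do not say which of a hairpin's arms a read came from.

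Reads with more than 1 mapping position, 23.3% of reads in replicate 1 and 23.5% in replicate 2, were counted separately and assigned to no gene. Of the 6 members, Mir19b-1 and Mir92-1 hold a stretch of 20 or more bases found in another annotated microRNA hairpin. These hairpins and their X-linked copies are shown because they decide how 2 of the members can be read, with the longest shared stretch in capitals.
Mir19b-1: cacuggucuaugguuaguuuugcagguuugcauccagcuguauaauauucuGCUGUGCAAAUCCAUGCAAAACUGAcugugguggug
Mir19b-2: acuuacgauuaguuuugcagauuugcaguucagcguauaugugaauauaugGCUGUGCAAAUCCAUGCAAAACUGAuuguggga
Mir92-1: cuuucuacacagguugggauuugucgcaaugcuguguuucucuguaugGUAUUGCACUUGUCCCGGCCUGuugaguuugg
Mir92-2: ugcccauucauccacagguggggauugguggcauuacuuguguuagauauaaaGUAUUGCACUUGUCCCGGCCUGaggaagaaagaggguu

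The shared stretch is 25 bases long in the Mir19b hairpins and 22 in the Mir92 hairpins. It takes in the whole of miR-19b-3p (23 bases) and the whole of miR-92a-3p (21 bases), so a read of either arm with no further base matches both loci. A read that runs past the capitals matches a single locus. The counts of Mir19b-1 and Mir92-1 are therefore lower limits, as long as reads that run past the capitals were placed at their own locus. Whether reads with a mismatch in these last bases were placed elsewhere could not be checked. The longest stretch in any other annotated microRNA was 13 bases for Mir17 (in Mir20a and Mir106a), 17 for Mir18 (in Mir18b), 13 for Mir19a (in Mir19b-2) and 17 for Mir20a (in Mir3966). This search covered annotated microRNA hairpins and not the rest of the genome.

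Mir17hg (ENSMUSG00000089726.2) is a long intergenic noncoding RNA gene on the plus strand of chromosome 14, from 115042879 to 115046727 (mm10). All 6 hairpins lie in its exon 2, on the same strand, within 836 bases. Mir17 (ENSMUSG00000065508.1) at 115043671 to 115043754 comes first, 792 bases from the start of the host. It is followed by Mir18 (ENSMUSG00000065403.1) at 115043851 to 115043946 and Mir19a (ENSMUSG00000065416.1) at 115044000 to 115044081. Then come Mir20a (ENSMUSG00000065442.1) at 115044157 to 115044263, Mir19b-1 (ENSMUSG00000076256.1) at 115044305 to 115044391 and Mir92-1 (ENSMUSG00000076062.1) at 115044427 to 115044506. The gaps between hairpins run from 35 bases (Mir19b-1 to Mir92-1) to 96 bases (Mir17 to Mir18). The hairpins are alike in size and composition, with 80 to 107 bases and a GC content of 43.7% to 47.5%. Their predicted folding energies ran from -38.7 kcal/mol for Mir19a to -29.2 kcal/mol for Mir18.

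The cluster held 7.59% of own-strand gene counts in replicate 1, with an exact 95% interval of 7.57 to 7.62. In replicate 2 it held 4.62% (4.61 to 4.64), which gives a mean of 6.11% ± 2.10 (SD, n = 2). The share was higher in replicate 1 by more than counting error. In whole tissue, fewer cells of a type and less RNA per cell cannot be told apart. A share of total counts also depends on the counts of all other genes, and that part was not separated here. The intervals cover counting error only, because each is computed within a library and leaves out the spread between pools. Without molecular identifiers a read cannot be counted as a separate molecule, so the intervals may be too narrow even for counting error.

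Counted levels differed widely among the hairpins of this single transcript. The Mir17 count was 1237 times that of Mir19b-1 in replicate 1, and 1810 times in replicate 2. These ratios may be too high, since the Mir19b-1 count is a lower limit. Whether RNAs of different sequence entered the libraries equally well was not tested. Ratios between different hairpins, here and below, therefore compare counts. Mir17, whose miR-17-5p is known to restrain the cell cycle inhibitor Cdkn1a and the TGF-beta receptor Tgfbr2, had 46633 CPM in replicate 1 and 27587 CPM in replicate 2, a mean of 37110 ± 13467 (SD, n = 2). Mir20a, which carries the same seed, had 15370 and 9618 CPM, a mean of 12494 ± 4067. Mir18, whose hairpin is known to need hnRNPA1 for efficient cutting, had 7433 and 4487 CPM, a mean of 5960 ± 2083. These hairpins, none with a 20-base copy, were the 3 most abundant of the cluster on the CPM scale in both libraries. All 3 were higher in replicate 1.

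Mir92-1, whose miR-92a is known to act on the integrin Itga5 in blood vessels, had 6317 and 4450 CPM, a mean of 5383 ± 1320. Mir19a had 134 and 88.1 CPM, a mean of 111 ± 32.8, from 560 and 422 reads. Mir19b-1 had 37.7 and 15.2 CPM, a mean of 26.5 ± 15.9, from 157 and 73 reads. miR-19 is known to carry much of the cluster's oncogenic activity, and its genes were the lowest counted of the 6. Mir19a has no copy of at least 20 bases elsewhere among the annotated hairpins, although its miR-19a-3p differs from miR-19b-3p by a single base, and how reads with a mismatch were treated is not given in the sources used here. Mir17 exceeded it 347-fold in replicate 1 (exact 95% limits of 319 and 377) and 313-fold in replicate 2 (285 and 345).

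Among all 1973 listed genes, Mir17 had rank 5 by counts in replicate 1 and 9 in replicate 2, and Mir20a had rank 14 and 20. Mir18 stood at 33 and 41, Mir92-1 at 41 and 42, Mir19a at 194 and 204, and Mir19b-1 at 250 and 283. The most abundant listed gene, Mir335, exceeded Mir17 2.99-fold in replicate 1 and 5.92-fold in replicate 2.

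**Figure D1:**
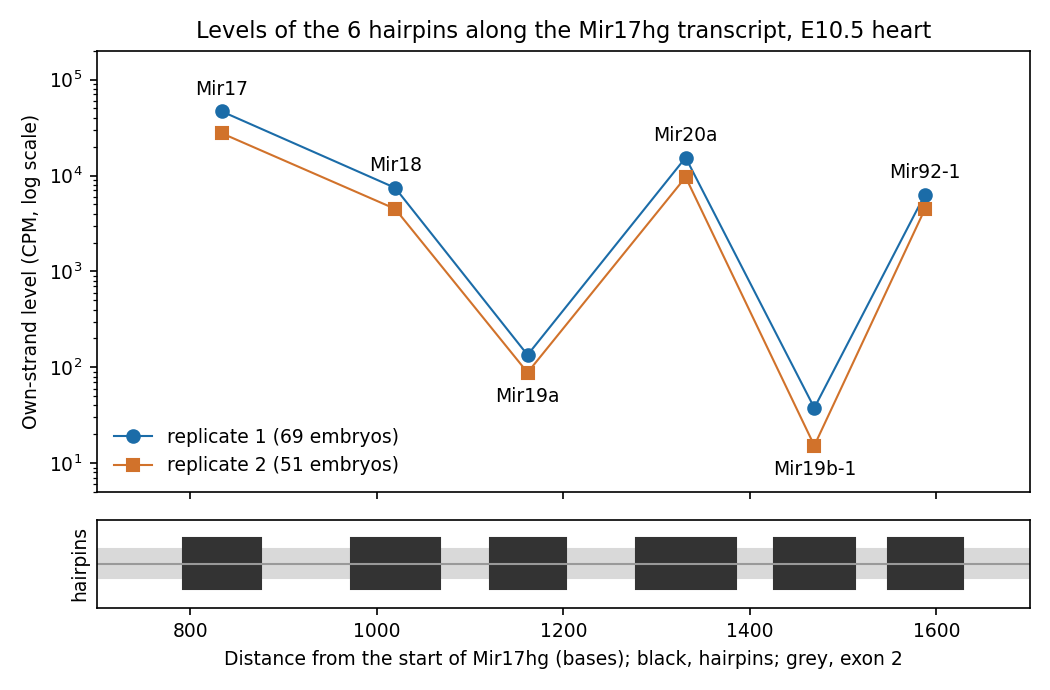
Own-strand level of each hairpin in CPM (log axis) against the distance of its centre from the start of Mir17hg, with 1 line per library and the hairpins drawn to scale below. Both libraries show the same zigzag of counted levels, high at Mir17, Mir20a, Mir18 and Mir92-1 and low at Mir19a and Mir19b-1. Replicate 1 is above replicate 2 at every hairpin.

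Counted levels did not follow the order of the hairpins on the transcript. Mir19a, the third hairpin, lies between Mir18 and Mir20a, and Mir19b-1 lies between Mir20a and Mir92-1. Both libraries gave the order Mir17, Mir20a, Mir18, Mir92-1, Mir19a and Mir19b-1 by CPM. Mir17 exceeded Mir20a 3.03-fold in replicate 1 (3.01 to 3.06) and 2.87-fold in replicate 2 (2.84 to 2.90). Mir20a exceeded Mir18 2.07-fold and 2.14-fold, and Mir92-1 exceeded Mir19a 47.0-fold and 50.5-fold. For each of these neighbours in the order, and for Mir19a over Mir19b-1 (3.57-fold and 5.78-fold), the CPM range of the higher gene over the 2 libraries did not overlap that of the lower gene.

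Mir18 and Mir92-1 are the neighbours that did not differ beyond the spread of the libraries. Mir18 exceeded Mir92-1 1.18-fold in replicate 1 (1.16 to 1.20) and 1.01-fold in replicate 2, where the interval of 0.989 to 1.03 includes equality. Their order also turned when counts were divided by hairpin length. Mir18 then had 77.4 CPM per base in replicate 1 and 46.7 in replicate 2, against 79.0 and 55.6 for Mir92-1. Per length the other hairpins kept their places, with 555 and 328 CPM per base for Mir17, 144 and 89.9 for Mir20a, 1.64 and 1.07 for Mir19a, and 0.433 and 0.175 for Mir19b-1. A small RNA read covers about a whole mature arm, whatever the length of its hairpin, so levels are otherwise given per hairpin. Since reads of miR-92a-3p can match 2 loci, the level of Mir92-1 beside Mir18 is a lower limit.

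The make-up of the cluster was close in the 2 libraries. Mir17 held 61.4% of the cluster's counts in replicate 1 (61.3 to 61.6) and 59.7% in replicate 2 (59.4 to 59.9), a mean of 60.5% ± 1.25 (SD, n = 2). Mir20a held 20.2% (20.1 to 20.4) and 20.8% (20.63 to 20.97), and Mir18 held 9.79% (9.69 to 9.89) and 9.70% (9.58 to 9.83). The hairpins with the miR-17 seed together made up most of the counted cluster. For Mir18 the intervals overlapped, while for Mir17 and Mir20a the libraries differed by more than counting error.

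Mir92-1 held 8.32% of the cluster's counts in replicate 1 (8.22 to 8.42) and 9.62% in replicate 2 (9.50 to 9.75), the only member besides Mir20a whose share was higher in replicate 2 beyond counting error. Mir19a held 0.177% (0.163 to 0.192) and 0.191% (0.173 to 0.210), with overlapping intervals. Mir19b-1 held 0.0497% (0.0422 to 0.0581) and 0.0330% (0.0258 to 0.0414).

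**Figure D2:**
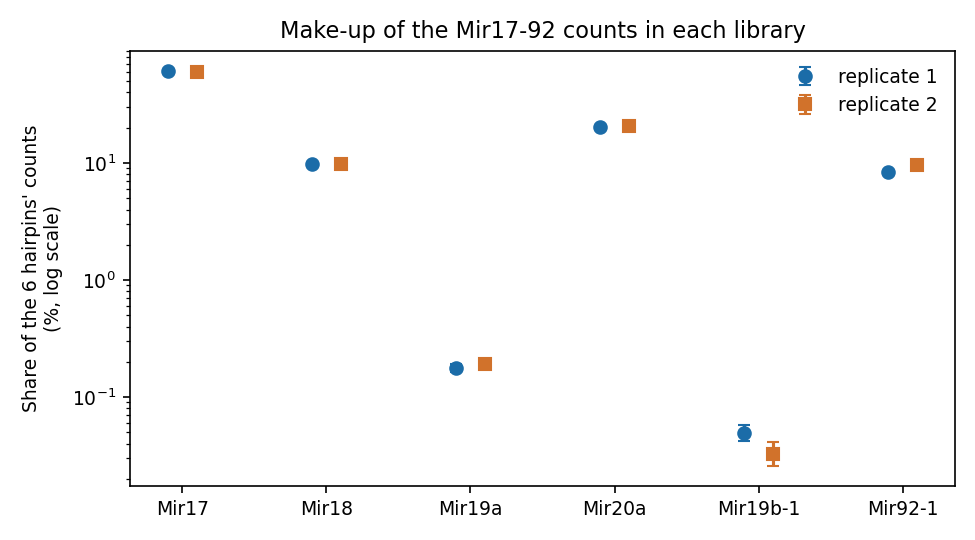
Share of each hairpin in the summed own-strand counts of the 6 hairpins (percent, log axis) in replicate 1 (circles) and replicate 2 (squares), with exact 95% intervals that are mostly smaller than the symbols. Mir17 holds 61.4% and 59.7%, while Mir19a and Mir19b-1 each hold under a percent in both libraries.

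The pools were compared gene by gene with an exact two-sided binomial test, conditional on each gene's total and with library sizes scaled by TMM, over the 424 genes with at least 10 counts in a library. The test compares these libraries and not conditions, and asks only whether a difference exceeds counting error. Of the 424 genes, 261 (61.6%) passed at a Benjamini-Hochberg adjusted p of 0.05, and 132 (31.1%) were lower in replicate 2. All 6 members passed and were lower in replicate 2. With total counts in place of TMM, which shifts every log2 ratio by -0.27, 196 of the 424 genes were lower and 66 higher (132 and 129 with TMM), and the 6 members were lower again.

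On the TMM scale the log2 ratio of replicate 2 over replicate 1 was -0.48 for Mir17 (95% exact interval -0.49 to -0.47), -0.45 for Mir18 (-0.48 to -0.43) and -0.40 for Mir20a (-0.42 to -0.38). It was -0.34 for Mir19a (-0.52 to -0.15, adjusted p = 6.4e-04 in the exact binomial test). It was -0.23 for Mir92-1 (-0.26 to -0.20). Mir19b-1, with the fewest reads, had -1.03 (-1.45 to -0.62, adjusted p = 5.2e-07 in the exact binomial test). The members' median was -0.43, beside -0.01 for all 424 genes. The interval of Mir92-1 did not overlap those of Mir17, Mir18 and Mir20a.

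**Figure D3:**
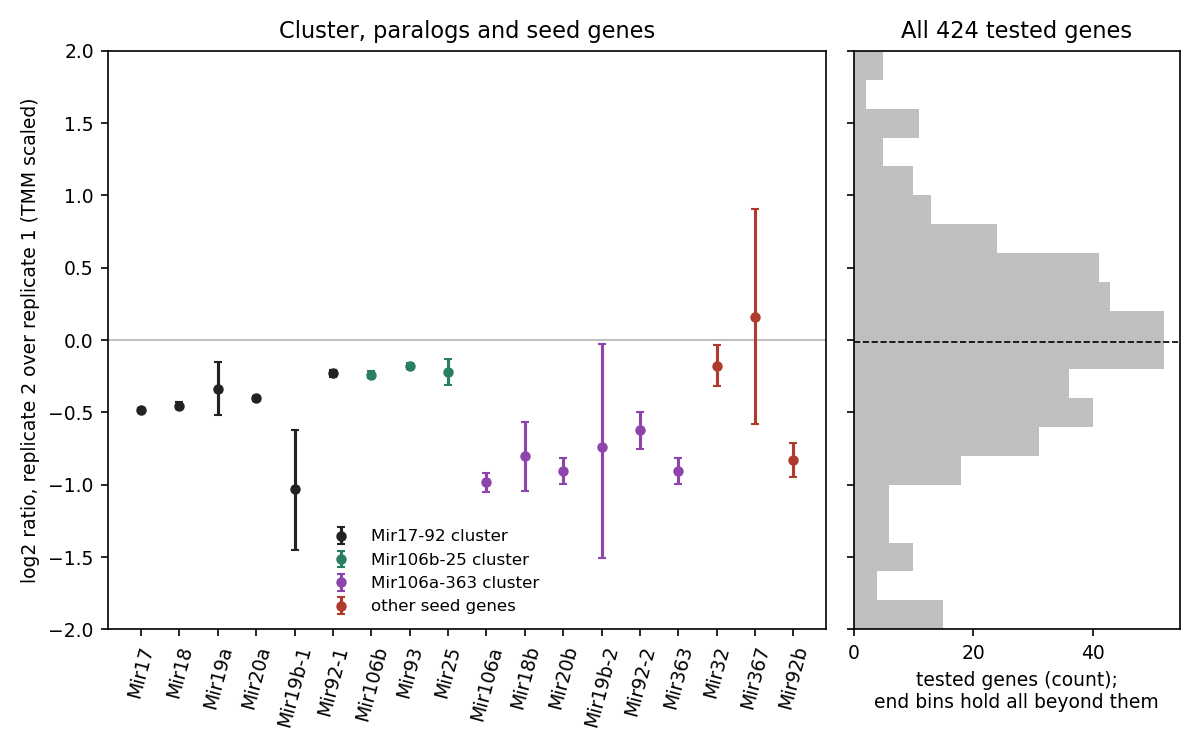
Left, log2 ratio of replicate 2 over replicate 1 after TMM scaling for the cluster, its paralogs and other genes with a shared seed, with exact 95% intervals; right, the same ratio for all 424 tested genes, with the median dashed. The members lie between -1.03 and -0.23 with a median of -0.43, the Mir106b-25 genes between -0.24 and -0.18 and the X-linked genes between -0.98 and -0.62.

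MicroRNAs taken as markers, those of heart muscle included, also moved between the pools. For comparison, 132 (31.1%) of all 424 tested genes were lower in replicate 2 and 129 higher. Marker sums are CPM of total counts, while genes are called lower or higher on the TMM scale. Total counts shift every log2 ratio by -0.27 from that scale. Of the markers higher in replicate 1, the Hox-cluster genes are tied to position along the body axis. They summed to 17890 CPM in replicate 1 and 2051 CPM in replicate 2. All 5 tested genes (6 listed) were lower in replicate 2. The epithelial genes summed to 7068 and 2089 CPM, with 7 of 7 lower. The liver genes summed to 3351 and 293 CPM, with 3 of 4 lower and 1 higher. No gene of these 3 lists was at 0 in both libraries.

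Heart muscle genes went the other way, with 34745 CPM in replicate 1 and 69054 CPM in replicate 2, and 4 of 5 tested genes higher in replicate 2. Mir208b, from an intron of the myosin gene Myh7, led them with 21037 and 49967 CPM. Mir208a had 12836 and 17434 CPM and Mir499 868 and 1646, so the sum is mainly that of the Mir208 genes. The 4 include Mir133a-1, on only 3 and 15 reads. Mir1a-1, on 17 and 15 reads, was not called, and Mir133a-2, with 1 read in each library, was not tested. The let-7 genes, which accumulate as cells differentiate, summed to 8132 and 16997 CPM, with 8 of 8 tested genes higher. Endothelial Mir126a had 53306 and 55503 CPM and was called higher in replicate 2, with a TMM-scaled log2 ratio of 0.33. The smooth muscle genes summed to 69745 and 86022 CPM (2 of 2 higher in replicate 2), and the blood genes to 1160 and 1713 (2 of 3 higher in replicate 2, 0 lower). The leukocyte genes summed to 454 and 332 CPM. With TMM scaling, Mir223 was lower at -0.75 and Mir155 higher at 0.28 in log2, though Mir155 had 214 CPM in both libraries. The pluripotency clusters summed to 29051 and 22921 CPM, with 5 of 11 tested genes lower and 0 higher. Their median log2 ratio with TMM scaling was only -0.07. Of 5 listed neural genes, Mir9-2, Mir124a-1, Mir124a-2 and Mir124a-3 had no counted read in either library. All 5 have a copy of at least 20 bases in another hairpin, so the zeros cover reads counted at these loci and set no upper limit on the expression of the microRNAs. Such a copy is also held by 3 of 6 heart muscle genes, 5 of 9 let-7 genes and 4 of 11 pluripotency genes. It is held by 2 of 6 Hox-cluster, 2 of 4 liver and 1 of 3 blood genes. The sums of these lists leave out reads that match several places. The part of these marker differences in the ratios of the Mir17-92 members was not tested.

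The paralog on the X chromosome was expressed far below the cluster. Mir106a had 1296 and 541 CPM, Mir363 725 and 320, Mir20b 687 and 303, Mir92-2 316 and 170, Mir18b 98.2 and 46.6, and Mir19b-2 11.05 and 5.43. The level of Mir17 was 36.0-fold that of Mir106a in replicate 1 (35.02 to 36.98) and 51.0-fold in replicate 2 (49.0 to 53.0). Mir18 exceeded Mir18b 75.7-fold and 96.4-fold, and Mir20a exceeded Mir20b 22.4-fold and 31.7-fold. Divided by hairpin length these ratios were 27.8 and 39.4 for Mir17 over Mir106a, 65.4 and 83.3 for Mir18 over Mir18b, and 16.7 and 23.7 for Mir20a over Mir20b. Mir92-1 exceeded its copy Mir92-2 19.98-fold and 26.2-fold, and Mir19b-1 exceeded its copy Mir19b-2 3.41-fold (2.44 to 4.85) and 2.81-fold (1.77 to 4.58). These last ratios rest only on reads that matched a single locus.

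The Mcm7 paralog was nearer the cluster in level. Mir93 had 8913 and 6517 CPM, Mir106b 6569 and 4599, and Mir25 552 and 391. Mir20a exceeded Mir93 1.72-fold and 1.48-fold (1.42-fold and 1.21-fold per length), and Mir92-1 exceeded Mir25, which shares its seed, 11.4-fold in both libraries. Per length, the ranges of Mir20a and Mir93 over the 2 libraries overlapped, while per hairpin they did not. All 3 genes passed the test and were lower in replicate 2, with log2 ratios of -0.24 for Mir106b, -0.18 for Mir93 and -0.22 for Mir25. Of the X-linked genes 5 of 6 passed, all lower, from -0.98 for Mir106a to -0.62 for Mir92-2. Mir19b-2, on 46 and 26 reads, had -0.74 (-1.50 to -0.03, adjusted p = 0.054 in the exact binomial test). The median was -0.22 for the Mcm7 genes and -0.85 for the X-linked genes, beside -0.43 for the Mir17-92 members. Whether the clusters differ in this ratio beyond the spread between pools was not tested, since there is 1 library on each side.

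Summed over its genes, each seed family drew most of its counted reads from Mir17-92. Mir17 and Mir20a supplied 78.0% of the counts of the 7 listed genes with the miR-17 seed in replicate 1 and 75.7% in replicate 2. Families here share bases 2 to 7. The miR-17 family summed to 79468 and 49166 CPM, and it includes Mir6383, which had no read in either library. Mir18 supplied 98.7% and 99.0% of the miR-18 family. Mir19a and Mir19b-1 supplied 93.97% and 95.01% of a miR-19 family that summed to only 183 and 109 CPM.

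Mir92-1 supplied 73.9% and 78.2% of the 7 listed genes with the miR-92 seed. Of the genes of this family outside the clusters, Mir92b had 415 and 193 CPM, Mir32 213 and 156, and Mir367, of the pluripotency cluster Mir302-Mir367, 7.69 and 7.10. Mir92b was lower in replicate 2, with a log2 ratio of -0.83 (-0.94 to -0.71). Mir32 was lower by less, at -0.18 (-0.32 to -0.04, adjusted p = 0.024 in the exact binomial test), and Mir367, on 32 and 34 reads, had 0.16 (-0.58 to 0.90, adjusted p = 0.77). For the miR-19 and miR-92 families the shares leave out reads that match both copies.

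**Figure D4:**
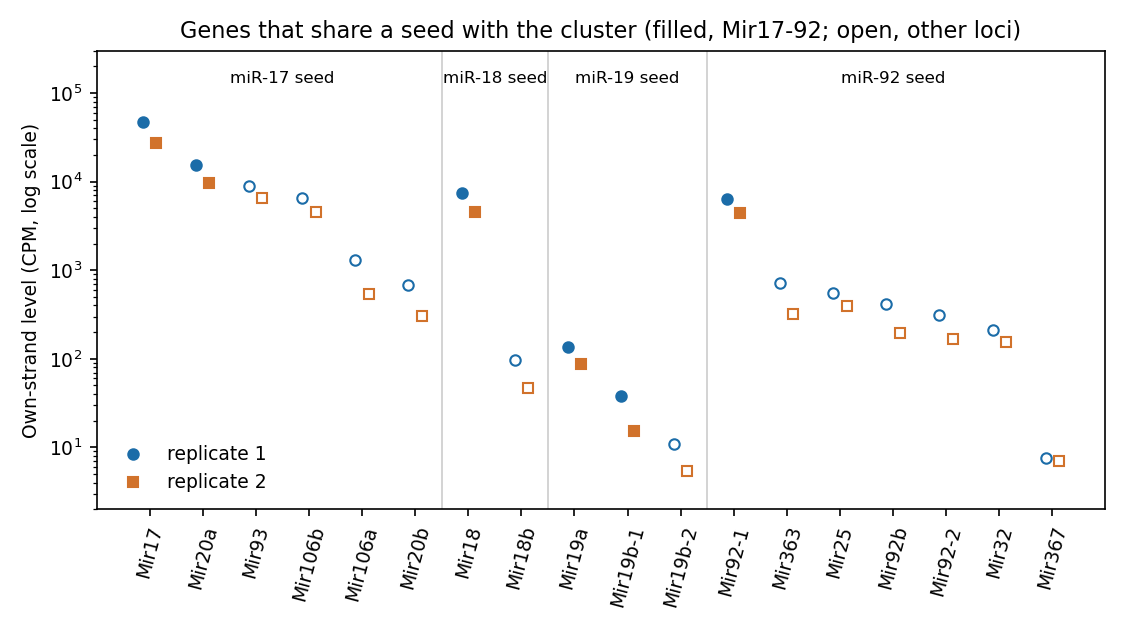
Own-strand level in CPM (log axis) of each gene with a read whose mature arm shares bases 2 to 7 with an arm of the cluster, by seed family, with replicate 1 as circles and replicate 2 as squares. Filled symbols are Mir17-92 members, which lead every family, and the miR-19 family reaches only 134 CPM.

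Outside the cluster, its paralogs and the seed families, 88 genes had a mean of at least 1000 CPM. The 5 whose log2 ratio between the 2 libraries lay nearest the members' median of -0.43 were Mir379 at -0.44, Mir411 at -0.41, Mir100 at -0.47, Mir433 at -0.38 and Mir487b at -0.37. Mir379 had 5520 and 3368 CPM, Mir411 14698 and 9132, Mir100 6995 and 4178, Mir433 1589 and 1006, and Mir487b 13005 and 8346. Mir411 shares a stretch of at least 20 bases with Mir758, and Mir487b with Mir376b, so their counts leave out reads that match several places. Mir379, Mir411, Mir433 and Mir487b lie on chromosome 12 and Mir100 on chromosome 9. With 2 libraries likeness rests on a single ratio per gene, and 29.2% of all tested genes had a ratio below the members' median.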

How the data were processed

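MicroRNA sequencing of 2 small RNA libraries of E10.5 heart was used. The authors deposited whole-number read counts per microRNA gene, with no normalization, made from each library's alignment to mm10 with GENCODE M4 genes, per the libraries' deposited README texts. Aligner, trimming and counting settings: not given in the sources used here. Rows that name no gene held 26.3% and 25.5% (unmapped), 23.3% and 23.5% (several places) and 8.98% and 7.41% (no listed gene, own strand) of reads, and stayed out of totals.

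Identifiers were matched to GENCODE M21 (same assembly), 1894 of 1973. The members' 6 hairpins matched RefSeq exactly. Exact Clopper-Pearson 95% intervals used scipy 1.17.1. The binomial test used TMM sizes (edgeR 4.0.16) and Benjamini-Hochberg adjustment over 424 genes, and log2 ratios add a prior count of 0.5. It was tried on simulated Poisson counts with known library totals, which covers neither TMM scaling nor spread between pools. RNAfold 2.7.2 gave folding energies. No count model was fitted, since the labels give 1 group. Labels call the libraries biological replicates, and p-values measure counting error only.

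Genes named are the members, the paralogs, listed genes sharing bases 2 to 7 of a seed, the most abundant gene, the 5 genes of at least 1000 CPM nearest in ratio, and marker lists. Members and lists were chosen with earlier results of these data known. Alternatives were both strands, other totals, scalings, filters and prior counts, division by length, and each replicate alone.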

Additional observations from a re-analysis of the deposited data

How the results depend on the processing

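The level of each member stayed within 1 SD of the value given under both-strand counts, other totals and division by length, as did the cluster's share under both-strand counts and without the members that have a copy. That SD over 2 libraries is wide, as for Mir17, with 37110 ± 13467 CPM and 43577 CPM when the total left out the most abundant gene. Both-strand counting could change only the total, since the members have no opposite-strand read. With each library alone the cluster's share was 7.59% or 4.62%, and Mir19b-1 had 37.7 or 15.2 CPM. With 2 libraries each lies within 1 SD of their mean by construction, so this says nothing of stability. Division by hairpin length moved the mean share of the cluster's counts to 63.8% for Mir17, 8.99% for Mir18, 0.199% for Mir19a, 17.0% for Mir20a and 9.93% for Mir92-1. All 6 members were lower in replicate 2 under each of the 6 alternatives of the ratio, with medians from -0.70 (total counts) to -0.40 (both strands). Among the related genes, Mir19b-2 passed with total counts (-1.01, adjusted p = 0.0076 in the exact binomial test), Mir32 did not with counts over both strands (-0.15, adjusted p = 0.056), and Mir367 turned to -0.12 with total counts without passing (adjusted p = 0.85). The causes were not tested. No paired analysis was possible because the libraries form a single group, and the ratio cannot be computed without a replicate. Of the members, Mir19b-1 had the fewest reads (157 and 73) and the widest interval of its ratio (-1.45 to -0.62).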

Other observations

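None of the 6 hairpins had a read on the opposite strand in either library. That is 0 of 316125 reads in replicate 1 and 0 of 221471 in replicate 2, which allows shares of up to 9.5e-04% and 0.0014% (3 counts). Over all listed genes, 4.46% and 4.58% of gene counts lay on the opposite strand. Of the 205 genes with at least 1000 counts over both strands and libraries, 173 (84.4%) likewise had no opposite-strand read, so the members do not stand apart in this.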
